A study of Mus musculus with 12 samples.

Results

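Translation initiation and elongation factors are the proteins that load the ribosome with the first tRNA, bring it to an mRNA and move it along the reading frame. Here 60 mouse genes for them were followed among the 12955 genes of the deposited table: every row whose symbol starts with Eif and a number from 1 to 6, or with Eef and 1 or 2, except Eif2s3y. The rule used names alone, but it was set with earlier results of these data known. All 60 reached 1 FPKM (fragment count scaled for transcript length and library total) in at least 2 libraries, which was the minimum for a test, and 12059 genes in all did. The thinnest was Eif4e3, with 5 libraries at 1 FPKM or more, followed by Eef2k and Eif4ebp2 with 11.

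The cells were mouse primordial germ cell-like cells, a culture model of the embryo's germline founder cells, made from J1 male embryonic stem cells. They were sorted from embryoid bodies by CD61 and SSEA1, and poly(A) RNA was sequenced. The 12 libraries formed 6 groups of 2: EV at day 2, OE at day 2, EV at day 6, OE at day 6, and day 2 cells given DMSO or dTAG13 for 2 days. The labels do not spell out EV and OE; the title of the series names Tex10 as the gene studied, and Tex10 was higher in OE. dTAG13 is a small molecule that brings proteins fused to its tag to the cell's degradation machinery, and DMSO is the usual solvent for it; the tagged protein and its line are not described in the sources used here. Whether the libraries of a group came from separate cultures is not stated, so p-values measure only the spread between these libraries.

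Initiation starts when eIF2, carrying the initiator tRNA, joins the small ribosomal subunit with eIF1, eIF1A, eIF3 and eIF5. The eIF4F complex, made of the cap binder eIF4E, the scaffold eIF4G and the helicase eIF4A, brings that assembly to the capped end of an mRNA. eIF2B recharges eIF2 after each round, a set of kinases can block that step under stress, and the 4E-BP proteins hold eIF4E back until mTOR phosphorylates them. eEF1 then delivers each aminoacyl-tRNA and eEF2 moves the ribosome on.

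Tex10 transcript at day 2 was 119 and 145 FPKM in EV against 403 and 378 in OE, and at day 6 it was 65.7 and 81.5 against 259 and 269. It was 61.7 and 56.8 with DMSO, and 45.2 and 36.5 with dTAG13. Summed FPKM ran from 550230 to 673435 per library; depth in reads is unknown. D2_dTAG replicate 1, the first of the pair with dTAG13, stood apart, with 2008 genes listed at 0 against 18 to 127 in the other libraries, although no factor gene was listed at 0 there. Of 9 germ cell and pluripotency markers, 8 had a row and all 8 passed 1 FPKM in 2 libraries, summing to 858 to 1321 FPKM, most of it from Pou5f1. Itgb3, which encodes the sorting marker CD61, lay between 0 and 4.39 FPKM.

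The factor genes together made up 2.12% to 2.49% of each library's summed FPKM. Their levels per length differed widely. Eif5a, which helps ribosomes through difficult peptide bonds, averaged 1879 FPKM over the 12 libraries and Eef1a1, the main tRNA-delivering elongation factor, 1828. Next came the helicase Eif4a1 at 878 and the eIF4E inhibitor Eif4ebp1 at 781. At the low end, Eif4e3 averaged 1.42, the eEF2 kinase gene Eef2k 2.09 and Eif5a2 2.697.

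Several of these genes have near copies in the genome, which bears on how reads could be assigned. In GENCODE M21 transcripts, 10 of the 60 genes shared over 25% of their 50-base windows exactly with transcripts of other genes. The share was 65.5% for Eif4ebp3, 65.3% for Eif4a1, 64.3% for Eef1g, 59.2% for Eef1a1 and 39.8% for Eif3j1, whose near copy Eif3j2 was not analysed here. Eif3m, Eif2s3x, Eif1, Eif2s2 and Eif3h were the others. Their absolute levels are uncertain, and 27 genes shared no window.

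Most of the factor genes that changed did so between day 2 and day 6, and most of those fell. In EV cells 21 of 60 were lower at day 6 and 2 higher (limma, Benjamini-Hochberg adjusted p below 0.05), while over all genes tested 10.5% were lower and 13.3% higher. In OE cells 27 were lower and 6 higher, against 14.7% and 17.5% of all genes. The median factor gene stood at -0.36 in EV and -0.33 in OE on the log2(FPKM + 1) scale, where changes of genes with low FPKM come out too small, and the median of all genes at 0.04 and 0.08. All differences given are on this scale, with their standard error (SE). Among the 8664 genes with at least 5 FPKM in 2 libraries, falls outnumbered rises. There 14.4% were lower and 11.5% higher in EV, and 20.0% and 16.5% in OE, with medians of -0.05 and -0.02. Of the 56 factor genes kept, 22 were lower and 2 higher in EV, and 27 and 4 in OE, with medians of -0.38 and -0.34. The EV and OE comparisons share no library, but both came from 1 model and used the same estimate of spread for each gene. Of the genes that fell, 18 did so in both, which is 85.7% of the EV list and 66.7% of the OE list. Of the 60, 41 had a negative difference in both, 13 a positive one in both, and 6 differed in sign. The matching overlap and sign shares over all genes are not given here, so these counts cannot be called particular to the factor genes.

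**Figure D1:**
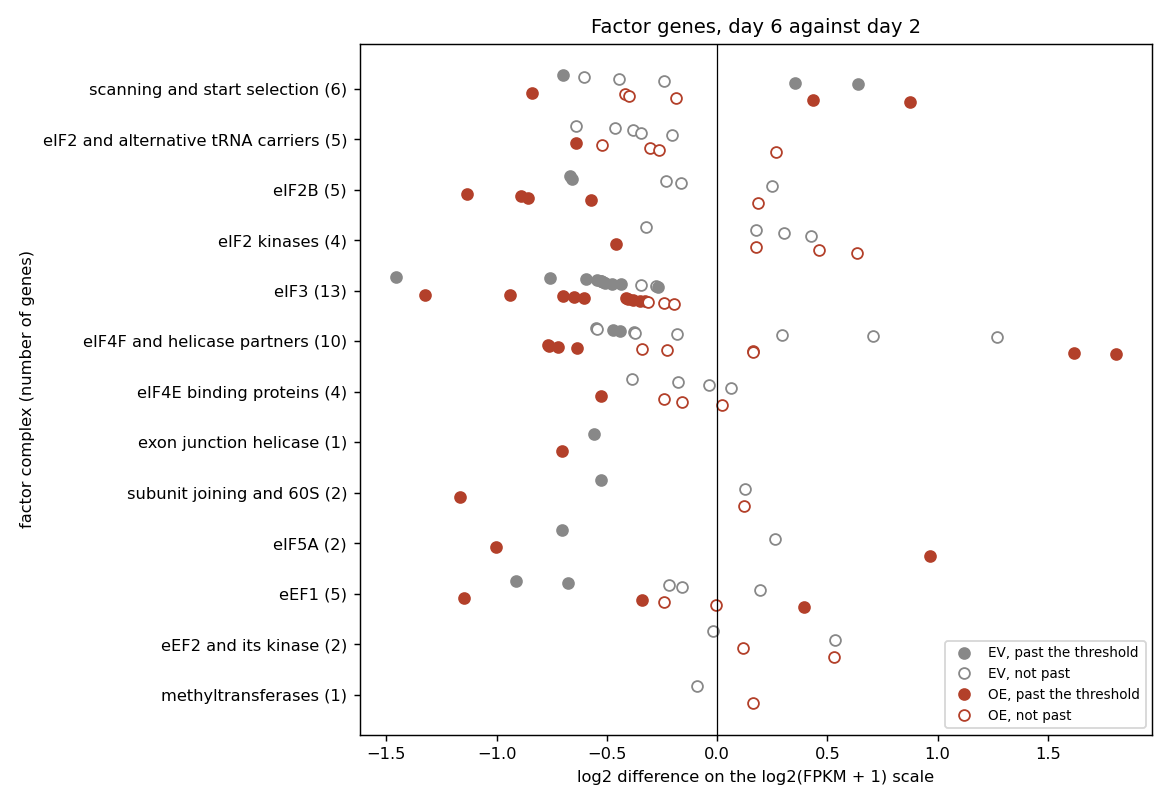
Log2 difference between day 6 and day 2 (x axis, log2(FPKM + 1) scale) of each of the 60 factor genes, by complex (y axis), in EV (grey) and OE (red); filled points passed an adjusted p of 0.05 in limma. All 13 eIF3 genes lie left of 0 in both (12 in OE under quantile normalization), and the points farthest to the right are Eif4a2 and Eif4e3.

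Under quantile normalization the EV split was 16 lower and 7 higher and the OE split 21 and 8, against 14.0% lower and 13.4% higher of all genes in EV and 18.2% and 17.1% in OE. The factor genes then had medians of -0.22 and -0.14. Only 7 of the 21 falls in EV and 13 of the 27 in OE passed under every alternative tried; these were Eef1d, Eif3l, Eif5a and Eif6 in both, Eif3b, Eif3f and Eif3m in EV, and Eif1ad, Eif2b1, Eif2b2, Eif2b4, Eif2b5, Eif3k, Eif4a3, Eif4g1 and Eif4h in OE. The single rise that did so was that of Eif4a2 in OE. The number past the threshold in EV was 8 without D6_EV replicate 1, 10 without either day 2 EV library, 14 without D6_EV replicate 2 and 40 without D2_dTAG replicate 1, in place of 23. The share of all genes was 9.44% to 12.8% in the fits without a library of the comparison and 52.1% without D2_dTAG replicate 1. In OE it was 16 without D6_OE replicate 2, 17 without D2_OE replicate 1, 22 without D6_OE replicate 1 and 43 without D2_dTAG replicate 1, in place of 33, where 16.02%, 16.1%, 18.3% and 58.8% of all genes passed. In bulk RNA, fewer cells of a type and less RNA per cell cannot be told apart, and neither can the day and any batch that moved with it.

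Among markers of other cells, the 2 endoderm genes with a row, of 5 listed, summed to 1.07 to 1.08 FPKM in day 2 EV and 4.19 to 4.69 in day 6 EV, and to 0.761 to 1.23 and 4.68 to 6.39 in OE. The 2 of 4 endothelial and blood genes with a row, mostly Pecam1, summed to 32.2 to 32.9 FPKM at day 2 and 64.2 to 74.0 at day 6 in EV, and to 34.3 to 38.4 and 109.6 to 113 in OE. Fibroblast genes, 1 of 5 with a row, stayed below 1 FPKM in sum in every library. Mesoderm genes (3 of 5 with a row) came to 0.850 to 0.884 FPKM at day 2 and 1.45 to 1.70 at day 6 in EV, and 0.599 to 0.871 and 1.30 to 1.87 in OE, and trophoblast genes (2 of 4) to 2.83 to 3.22 FPKM at day 2 and 2.00 to 2.06 at day 6 in EV, and 1.09 to 1.23 and 2.63 to 3.67 in OE. Pax6, the neural gene with a row, stood at 1.71 to 2.11 FPKM at day 2 and 1.06 to 1.37 at day 6 in EV, and 1.91 to 2.15 and 0.691 to 0.796 in OE. Among germ cell markers, Nanos3, a germ cell RNA-binding protein gene, went from 37.8 and 53.6 to 9.22 and 6.29 FPKM in EV and from 18.5 and 10.99 to 3.89 and 2.84 in OE, and Dppa3 from 28.6 and 27.1 to 7.05 and 9.63 and from 41.8 and 33.6 to 21.2 and 20.4. Tfap2c, a germ cell fate factor gene, went from 74.8 and 87.2 to 40.1 and 36.7 in EV and from 51.1 and 37.0 to 52.1 and 49.1 in OE, and Prdm14 from 21.6 and 19.3 to 26.0 and 23.9 and from 19.1 and 19.0 to 35.3 and 36.6. Dnd1 went from 17.5 and 14.2 to 23.7 and 19.3 FPKM in EV and from 29.3 and 28.9 to 25.7 and 23.2 in OE. Itgb3 went from 0.822 and 0.915 to 2.40 and 1.72 in EV and from 1.04 and 0.756 to 3.46 and 4.39 in OE. Prdm1 went from 5.80 and 6.83 to 4.32 and 4.90 in EV and from 4.11 and 3.75 to 5.63 and 4.08 in OE. Pou5f1 went from 961 and 889 to 780 and 810 in EV and from 1156 and 1080 to 773 and 766 in OE. The part of these markers' cells in the result was not tested.

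eIF3 is the largest initiation factor, a scaffold that holds the small subunit open for mRNA. Of its 13 measured genes, 10 fell in EV and 10 in OE, and none rose in either; the medians were -0.52 and -0.40. Under quantile normalization 4 fell in EV and 4 in OE, with medians of -0.31 and -0.17; Eif3c, Eif3e, Eif3g, Eif3h, Eif3i and Eif3k lost their call in EV, and Eif3c, Eif3d, Eif3f, Eif3h, Eif3i and Eif3m in OE. Eif3l (chromosome 15, 79075179 to 79094405, mm10 coordinates from GENCODE M21), a peripheral subunit, read 570.4 and 543 FPKM in EV and 589.8 and 518 in OE at day 2, 562 and 493 with DMSO and 465 and 455 with dTAG13, and 307 and 353 in EV and 223 and 218 in OE at day 6. Each day 6 library lay below all 8 day 2 libraries, and the OE pair lay below the EV pair. Eif3l fell by 0.76 (SE 0.11, adjusted p = 0.00116) in EV and fell by 1.32 (SE 0.11, adjusted p = 3.52e-05) in OE. Eif3b (chromosome 5, 140419328 to 140443360), a core subunit with an RNA recognition motif, read 337 and 223 FPKM in EV and 314 and 278 in OE at day 2, 196 and 273 with DMSO and 339 and 226.8 with dTAG13, and 90.8 and 108 in EV and 139 and 169 in OE at day 6. The day 6 libraries were again lowest, but the day 2 pairs were wide. Eif3b fell by 1.46 (SE 0.25, adjusted p = 0.00281) in EV and fell by 0.94 (SE 0.25, adjusted p = 0.0159) in OE.

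The other eIF3 genes moved less. Eif3k, Eif3l's partner at the edge of the complex, fell (-0.51 in EV, -0.70 in OE), and the RNA-binding subunit gene Eif3g (-0.52, -0.65). Eif3i fell as well (-0.48 in EV, -0.60 in OE), Eif3h (-0.54, -0.41), Eif3m (-0.53, -0.40), Eif3f (-0.59, -0.35), and Eif3c (-0.27, -0.33), each value pair given in the order EV, OE. Eif3e fell by 0.43 in EV, with no call in OE, and the cap-binding subunit gene Eif3d fell by 0.38 in OE, with none in EV; the test of the difference between EV and OE passed for neither. Eif3a, the largest subunit, and Eif3j1 passed in neither. Per length, Eif3j1 was the lowest, from 8.83 to 23.5 FPKM, Eif3a next at 60.4 to 118, and Eif3l, Eif3k and Eif3g the highest 3 by their mean over the 12 libraries. Summed over the 13 genes, eIF3 transcripts came to 3385 ± 156 FPKM in day 2 EV and 2273 ± 116 in day 6 EV, and 3634 ± 317 and 2357 ± 83.1 in OE (SD, n = 2).

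**Figure D2:**
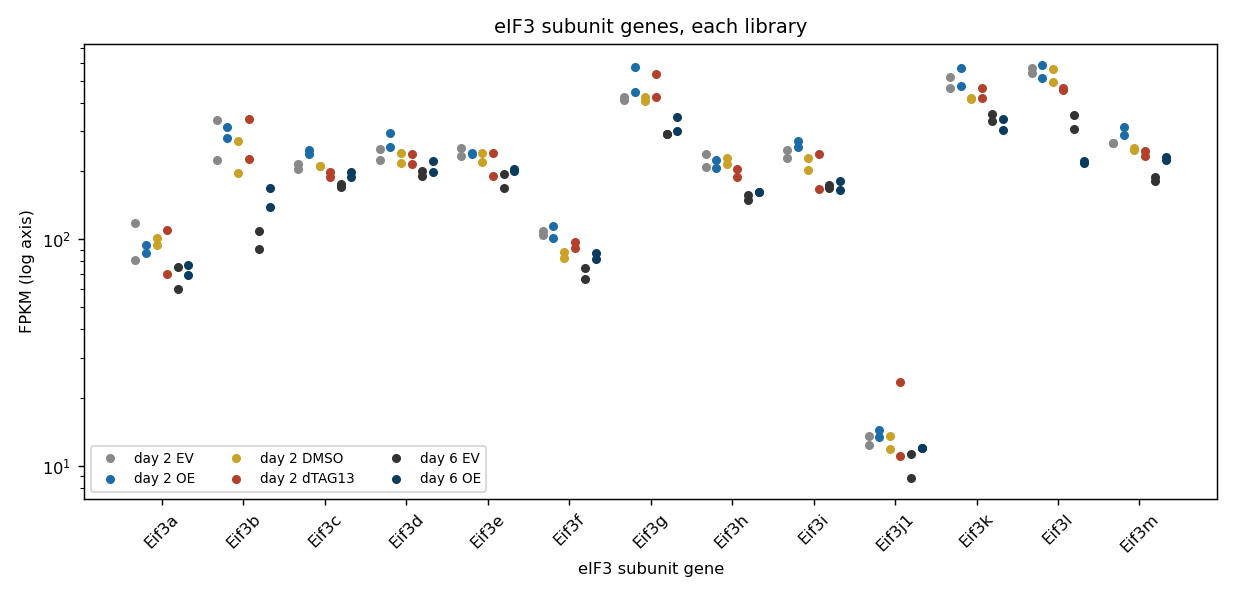
FPKM of each eIF3 subunit gene (log axis) in all 12 libraries, 2 points per group, colours by group. For Eif3b and Eif3l the 4 day 6 points lie below all day 2 points; Eif3j1 lies lowest, with D2_dTAG replicate 1 at 23.5 FPKM.

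Of 6 genes of the scanning step, 2 rose and 1 fell, in EV as in OE. Eif1, which keeps the scanning ribosome open until it meets a start codon, went from 441 and 487 FPKM to 568 and 617 in EV, and from 534 and 455 to 666 and 668 in OE. It rose by 0.35 (SE 0.10, adjusted p = 0.0274) in EV and by 0.43 (SE 0.10, adjusted p = 0.00796) in OE. Its paralog Eif1b (chromosome 9, 120492232 to 120495330) went from 23.7 and 21.5 to 33.3 and 38.2 FPKM in EV and from 30.8 and 24.2 to 45.6 and 56.7 in OE. Eif1b rose by 0.64 (SE 0.18, adjusted p = 0.0269) in EV and by 0.87 (SE 0.18, adjusted p = 0.00449) in OE. Eif1ad, a gene for a protein with an eIF1A-like domain, fell by 0.70 (SE 0.17, adjusted p = 0.0137) in EV and fell by 0.84 (SE 0.17, adjusted p = 0.0039) in OE. Eif1a, Eif1ax and Eif5, the GTPase activator of eIF2, passed in neither.

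Few eIF2 genes passed. Of 5 genes for eIF2 subunits and alternative tRNA carriers, 0 passed in EV. There 2 had an unadjusted p under 0.05, against 36.8% of all genes. In OE only Eif2d, which can place tRNA without eIF2, passed: it fell by 0.64 (SE 0.15, adjusted p = 0.00975). Eif2s2, the beta subunit and the highest of them, read 288 and 344 FPKM in EV and 303 and 295 in OE at day 2, 328 and 296 with DMSO and 409 and 292 with dTAG13, and 229.7 and 266 in EV and 383 and 338 in OE at day 6. Of 5 eIF2B genes, 2 fell in EV and 4 in OE. Eif2b2 (chromosome 12, 85219481 to 85226628), a regulatory subunit, went from 87.0 and 74.8 to 54.4 and 47.5 FPKM in EV, and from 107 and 90.5 to 46.6 and 42.1 in OE. It fell by 0.66 (SE 0.18, adjusted p = 0.0282) in EV and fell by 1.13 (SE 0.18, adjusted p = 0.00142) in OE. Eif2b1 fell (-0.67 in EV, -0.89 in OE). Eif2b4 and Eif2b5, the latter the catalytic subunit, fell in OE, at -0.86 and -0.57, and stood at -0.16 and -0.23 in EV, where neither passed. Eif2b3 was the exception in sign, at 0.25 and 0.18, without passing. In OE the starting level at day 2 was higher: summed eIF2B FPKM was 543 and 466 there against 406 and 400.4 in EV, and 333 and 319.8 against 328 and 337 at day 6.

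The eIF4A helicase is made from a major gene, Eif4a1, and a minor one, Eif4a2. Eif4a1 read 837 and 851 FPKM in EV and 919.7 and 899 in OE at day 2, 881 and 701 with DMSO and 642 and 697 with dTAG13, and 1005 and 1065 in EV and 990.2 and 1048 in OE at day 6, and passed in neither day comparison. Eif4a2 (chromosome 16, 23107444 to 23114136) read 85.7 and 114 FPKM in EV and 76.8 and 80.4 in OE at day 2, 103 and 87.7 with DMSO and 146 and 71.4 with dTAG13, and 161 and 163 in EV and 289 and 268 in OE at day 6. The 2 day 6 OE libraries were the highest of all 12 and the day 6 EV libraries came next, above every day 2 library. Eif4a2 rose by 1.81 (SE 0.27, adjusted p = 0.000843) in OE; in EV it stood at 0.71 (SE 0.27, adjusted p = 0.0839) and did not pass. Eif4a2 made up 9.29% and 11.8% of the summed FPKM of the pair at day 2 in EV and 7.71% and 8.22% in OE, and 13.8% and 13.3% at day 6 in EV and 22.6% and 20.4% in OE. D2_dTAG replicate 1 was also high, at 18.5%, against 9.28% in D2_dTAG replicate 2.

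Promoters were read for the pair and for 3 genes that fell. RefSeq promoters (GRCm38.p6, 250 bases before to 50 after a gene's start) matched 48 of the 60 genes by symbol. The E-box CACGTG, a palindrome that Myc-type and USF factors can bind, stood in the promoters of 12 of the 48 genes (25%), against 12.3% of the 9186 tested genes with a promoter and 8.09% of all 27025. TGATGNAA, the core of the C/EBP-ATF response element, searched on both strands, stood in 2 of the 48 (4.17%, against 2.63% of tested genes). Of the 12 with CACGTG, 5 fell in OE between the days and 2 rose, and of the 36 without it 16 fell and 3 rose. A match is a description of the letters only. The 250 bases before each start follow, 5′ to 3′ on the gene's strand, with CACGTG in capitals.
Eif4a1: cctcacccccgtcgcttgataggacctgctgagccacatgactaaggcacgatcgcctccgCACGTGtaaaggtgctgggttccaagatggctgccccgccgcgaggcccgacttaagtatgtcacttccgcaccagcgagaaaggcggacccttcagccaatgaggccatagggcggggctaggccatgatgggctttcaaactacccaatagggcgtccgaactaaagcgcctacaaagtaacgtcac
Eif4a2: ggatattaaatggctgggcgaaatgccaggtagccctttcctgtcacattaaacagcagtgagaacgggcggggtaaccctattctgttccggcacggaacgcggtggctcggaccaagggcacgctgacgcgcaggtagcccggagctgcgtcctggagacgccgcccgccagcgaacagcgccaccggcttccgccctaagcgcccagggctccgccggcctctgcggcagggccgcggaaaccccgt
Eif4g1: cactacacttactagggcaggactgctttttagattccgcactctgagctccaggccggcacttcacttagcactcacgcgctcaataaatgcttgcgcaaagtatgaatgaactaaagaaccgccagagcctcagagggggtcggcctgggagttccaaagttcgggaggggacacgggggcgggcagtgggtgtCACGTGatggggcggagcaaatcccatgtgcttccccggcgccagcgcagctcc
Eif3k: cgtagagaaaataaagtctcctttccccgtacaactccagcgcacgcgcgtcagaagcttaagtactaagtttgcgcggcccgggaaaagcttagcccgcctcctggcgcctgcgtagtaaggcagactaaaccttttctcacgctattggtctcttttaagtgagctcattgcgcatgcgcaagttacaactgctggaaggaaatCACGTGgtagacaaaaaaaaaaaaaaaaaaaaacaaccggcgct
Eif3l: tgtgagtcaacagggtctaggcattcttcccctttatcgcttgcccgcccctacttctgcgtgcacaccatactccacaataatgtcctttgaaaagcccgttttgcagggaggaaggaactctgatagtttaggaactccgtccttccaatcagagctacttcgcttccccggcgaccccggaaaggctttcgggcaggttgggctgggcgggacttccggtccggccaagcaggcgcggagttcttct
They lie at chr11:69672424-69672673 (minus strand), chr16:23107218-23107467 (plus), chr16:20672477-20672726 (plus), chr7:28981889-28982138 (minus) and chr15:79074973-79075222 (plus). Eif4a1, Eif4g1 and Eif3k hold 1 match each in these bases, while Eif4a2 and Eif3l hold none.

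**Figure D3:**
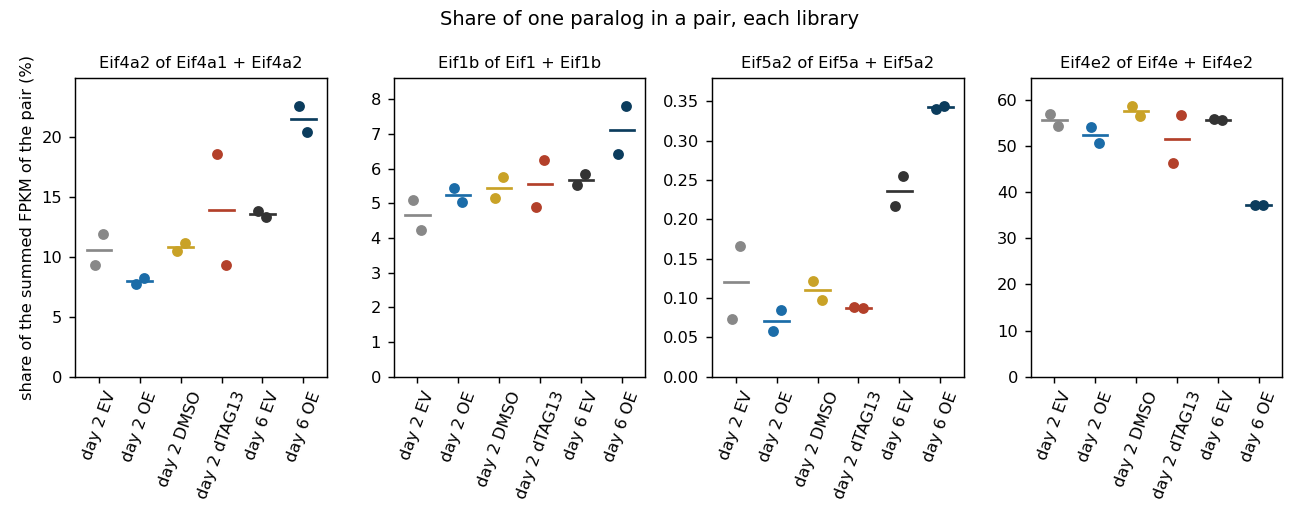
Share of one gene in the summed FPKM of a paralog pair (y axis, percent, starting at 0), 2 points per group with their mean as a line. The day 6 OE libraries lie highest for Eif4a2, Eif1b and Eif5a2 and lowest for Eif4e2.

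Of the other eIF4F genes, the scaffold Eif4g1 fell by 0.55 (SE 0.14, adjusted p = 0.0177) in EV and fell by 0.77 (SE 0.14, adjusted p = 0.00238) in OE, from 90.6 and 83.9 to 49.2 and 52.4 FPKM in the latter. Eif4h, a helper of the eIF4A helicase, fell (-0.47 in EV, -0.64 in OE). Eif4b, the other helper, fell by 0.44 in EV and did not pass in OE. In OE the scaffold paralog Eif4g3 fell by 0.76 (SE 0.24, adjusted p = 0.0326), and Eif4e2, a cap binder that acts mainly as a repressor, fell by 0.72 (SE 0.15, adjusted p = 0.00484). Eif4e2 read 75.2 and 68.1 FPKM in day 6 OE and 88.8 and 101 in day 6 EV, while Eif4e, the main cap binder, read 127 and 115 in the former and 70.4 and 80.3 in the latter. Eif4e2 was thus 37.2% and 37.2% of that pair's FPKM in day 6 OE and 55.8% and 55.6% in day 6 EV, with 46.4% to 58.8% over the day 2 libraries. Eif4e3, another cap binder, read 0.520 and 0.193 FPKM in EV and 0.139 and 0.284 in OE at day 2, 0.597 and 0.331 with DMSO and 4.66 and 0.420 with dTAG13, and 2.25 and 2.24 in EV and 2.56 and 2.86 in OE at day 6. It rose by 1.62 (SE 0.49, adjusted p = 0.0295) in OE from levels below 1 FPKM; in EV it stood at 1.27 (adjusted p = 0.0877).

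Among the proteins that hold eIF4E, Eif4ebp1 (chromosome 8, 27260329 to 27276674) was by far the highest, at 711 and 709.5 FPKM in EV and 895 and 760.1 in OE at day 2, 877 and 773 with DMSO and 920.2 and 1099 with dTAG13, and 734 and 752 in EV and 609 and 537 in OE at day 6. Its highest libraries were those with dTAG13 and its lowest those of day 6 OE. It fell between the days in OE by 0.53 (SE 0.12, adjusted p = 0.00823), and stood at -0.38 in the day 6 OE and EV comparison (adjusted p = 0.126) and 0.22 in that of day 2 (adjusted p = 0.549). The median of its 8 nearest tested neighbours on chromosome 8 was -0.42 and -0.60 in those OE comparisons, and the neighbours' part in the result was not tested. Eif4ebp2 and Eif4ebp3 lay below 6 FPKM throughout, and Eif4enif1, which carries eIF4E into the nucleus, between 6.72 and 19.9; none of these passed in any comparison.

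Eif5a (chromosome 11, 69916714 to 69921958) was the highest factor gene in every day 2 EV, OE and DMSO library, and read 2263 and 2311 FPKM in EV and 3029 and 2496 in OE at day 2, 1919 and 1842 with DMSO and 1466 and 1670.1 with dTAG13, and 1349 and 1459 in EV and 1424 and 1322 in OE at day 6. The day 6 libraries of EV and OE overlapped each other and lay below their day 2 counterparts. Eif5a fell by 0.70 (SE 0.11, adjusted p = 0.00196) in EV and fell by 1.002 (SE 0.11, adjusted p = 0.000174) in OE. eIF5A works only once one lysine is turned into hypusine, and both enzymes of that step fell as well. Dhps, which starts it, went from 117 and 119.5 to 70.03 and 74.1 FPKM in EV and from 137 and 114 to 60.2 and 53.7 in OE; it fell by 0.71 (SE 0.19, adjusted p = 0.0257) in EV and fell by 1.12 (SE 0.19, adjusted p = 0.002) in OE. Dohh, which completes it, fell by 0.66 (SE 0.13, adjusted p = 0.00637) in EV and fell by 1.13 (SE 0.13, adjusted p = 0.000248) in OE. The paralog Eif5a2 went the other way in OE, from 1.75 and 2.12 to 4.86 and 4.57 FPKM, and rose by 0.97 (SE 0.28, adjusted p = 0.0241). In EV it went from 1.67 and 3.84 to 2.93 and 3.73, a difference of 0.26 that did not pass (adjusted p = 0.544). Even in day 6 OE, Eif5a2 was only 0.340% and 0.345% of the pair's FPKM.

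Eif6 (chromosome 2, 155819832 to 155826925), which keeps the large subunit from joining too early and is needed to build it, read 353 and 323 FPKM in EV and 478 and 415 in OE at day 2, 332 and 317 with DMSO and 326 and 313 with dTAG13, and 234 and 234 in EV and 208 and 188 in OE at day 6. Its day 2 OE libraries were the highest and its day 6 OE libraries the lowest. It fell between the days by 0.53 (SE 0.10, adjusted p = 0.00459) in EV and fell by 1.17 (SE 0.10, adjusted p = 4.59e-05) in OE. Eif5b, the GTPase that joins the subunits, lay between 9.11 and 14.3 FPKM and passed nowhere. Eif4a3, the helicase at the heart of the exon junction complex, fell by 0.56 (SE 0.12, adjusted p = 0.00799) in EV and fell by 0.70 (SE 0.12, adjusted p = 0.00175) in OE.

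The elongation factors were divided. Eef1d (chromosome 15, 75894205 to 75909556), an exchange factor that recharges eEF1A, read 168 and 159 FPKM in EV and 241 and 191 in OE at day 2, 139.8 and 144 with DMSO and 146 and 119 with dTAG13, and 86.4 and 85.9 in EV and 104 and 89.4 in OE at day 6. All 4 day 6 libraries lay below the 8 day 2 libraries. It fell by 0.91 (SE 0.14, adjusted p = 0.00168) in EV and fell by 1.15 (SE 0.14, adjusted p = 0.000276) in OE. Eef1b2, another exchange subunit, fell by 0.68 in EV, where OE stood at -0.24 and did not pass, and the scaffold Eef1g fell by 0.34 in OE. Eef1a1 rose by 0.39 (SE 0.11, adjusted p = 0.0231) in OE, from 1696 and 1738 to 2271 and 2240.1 FPKM; under median-ratio scaling the difference was 0.37 and did not pass (adjusted p = 0.0619). Eef2, Eef2k, Eef1e1 and Eef2kmt, the eEF2 lysine methyltransferase, passed in neither comparison.

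Of 40 further genes of the translation pathway, 7 fell and 2 rose between the days in EV, and 11 fell and 4 rose in OE, which is 22.5% and 37.5% past the threshold against 23.7% and 32.3% of all genes. Of 8 hypusine and diphthamide genes, 4 fell in each; besides Dhps and Dohh, Dph2, an early enzyme of the diphthamide mark on eEF2, fell (-1.03 in EV, -1.08 in OE). The release factor Etf1 fell by 0.73 (SE 0.15, adjusted p = 0.00765) in EV and fell by 0.71 (SE 0.15, adjusted p = 0.00639) in OE. Mcts2, a retrocopy of the reinitiation gene Mcts1, fell (-0.72 in EV, -1.57 in OE). In the mTOR and MNK arm, Rptor, the mTORC1 scaffold, fell (-0.51 in EV, -0.54 in OE), and Mknk1, an eIF4E kinase, rose by 0.75 and 0.69. In OE, Pdcd4, which blocks eIF4A, rose by 0.89 (SE 0.19, adjusted p = 0.00569), Paip2, a brake on poly(A)-binding protein, by 0.53, and Larp1, which binds mRNAs with a pyrimidine start, fell by 0.76. Ddit3, a stress transcription factor made after eIF2 phosphorylation, rose by 1.80 (SE 0.15, adjusted p = 7.09e-05) in EV and by 1.98 (SE 0.15, adjusted p = 2.5e-05) in OE, whereas Atf4 fell in OE by 1.30 (SE 0.35, adjusted p = 0.0179). Pdcd4, Paip2, Larp1 and Atf4 did not pass in EV, but each moved the same way there. Between the days, mean FPKM in EV went from 5.82 to 8.25 for Pdcd4 and from 155 to 194 for Paip2. It went from 11.6 to 7.06 for Larp1 and from 27.01 to 14.4 for Atf4. When the day changes of OE and EV were compared directly, 0 of the 40 genes passed, so these changes cannot be called particular to OE.

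OE against EV compares cells with more Tex10 transcript with their controls of the same day. At day 2, 0 of 60 factor genes passed in limma, against 0.846% of all genes. An unadjusted p under 0.05 was found for 7, against 12.3% of all genes. When limma used only the 2 groups compared 2 passed, against 8.56% of all genes. The median stood at 0.10, and all genes at 0.04. The spread of the dTAG13 pair enters the shared error, and without D2_dTAG replicate 1 the count was 7 of 60, against 14.0% of all genes in that fit. These were Eif2ak3, Eif2b4, Eif2b5, Eif6, Eef1d, Eef2k and Eif4g3, a smaller share than that of all genes. Each difference was positive, and so were 43 of the 60 factor genes and 55.3% of all genes. All 5 eIF2B genes were positive, with a median of 0.28, but Eif2b3 changed sign under quantile normalization and without D2_EV replicate 1. Eif2b4 read 66.6 and 59.1 FPKM in EV and 102 and 83.1 in OE, a difference of 0.55 (SE 0.13, adjusted p = 0.0958, and 0.00852 without D2_dTAG replicate 1). Eif6 stood at 0.40 (adjusted p = 0.118, and 0.0189 without that library).

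At day 6, 1 factor gene rose in OE and 1 fell, which is 3.33% of 60 against 3.72% of all genes (1.92% higher and 1.79% lower). Eif3l fell by 0.58 (SE 0.11, adjusted p = 0.0189); the median of its 8 nearest tested neighbours on chromosome 15 was -0.22. Eif2ak3 (chromosome 6, 70844515 to 70905245) encodes PERK, the eIF2 kinase of the endoplasmic reticulum, and read 1.85 and 1.72 FPKM in EV and 4.68 and 4.29 in OE at day 2, 2.36 and 2.99 with DMSO and 4.39 and 2.15 with dTAG13, and 2.85 and 2.08 in EV and 6.40 and 8.79 in OE at day 6. Each OE library lay above both EV libraries of its day. Eif2ak3 rose at day 6 by 1.31 (SE 0.28, adjusted p = 0.0343), and at day 2 stood at 0.98 (SE 0.28, adjusted p = 0.167, and 0.0034 without D2_dTAG replicate 1). Its 8 nearest tested neighbours on chromosome 6 had a median of 0.53 at day 6 and 0.36 at day 2; their part in the result was not tested. None of the other kinase genes passed. At day 6, Eif2ak1, the heme-regulated kinase, stood at 24.9 and 24.7 FPKM in EV and 24.7 and 25.1 in OE, Eif2ak2, which senses double-stranded RNA, at 5.67 and 5.88 in EV and 5.64 and 6.02 in OE, and Eif2ak4, which senses uncharged tRNA, at 9.73 and 9.77 in EV and 10.8 and 9.61 in OE. With a pseudocount of 0.1 and with the replicate number as a block, Eif2ak3 did not pass (adjusted p = 0.0608 and 0.0519); without a trend Eif3l did not (adjusted p = 0.0623). Neither gene passed when any 1 of the 4 libraries compared was left out, and far fewer of all genes passed there too. Endothelial and blood markers summed to 64.2 to 74.0 FPKM in EV and 109.6 to 113 in OE at day 6. Nearly all of that was Pecam1, which read 72.7 and 63.1 FPKM in the EV pair against 111.6 and 108.3 in the OE pair. Gata1, the other gene with a row, hardly differed: 1.34 and 1.14 FPKM in the EV pair against 1.32 and 1.34 in the OE pair. The sum thus rests on a single gene, and the part of other cells was not tested.

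**Figure D4:**
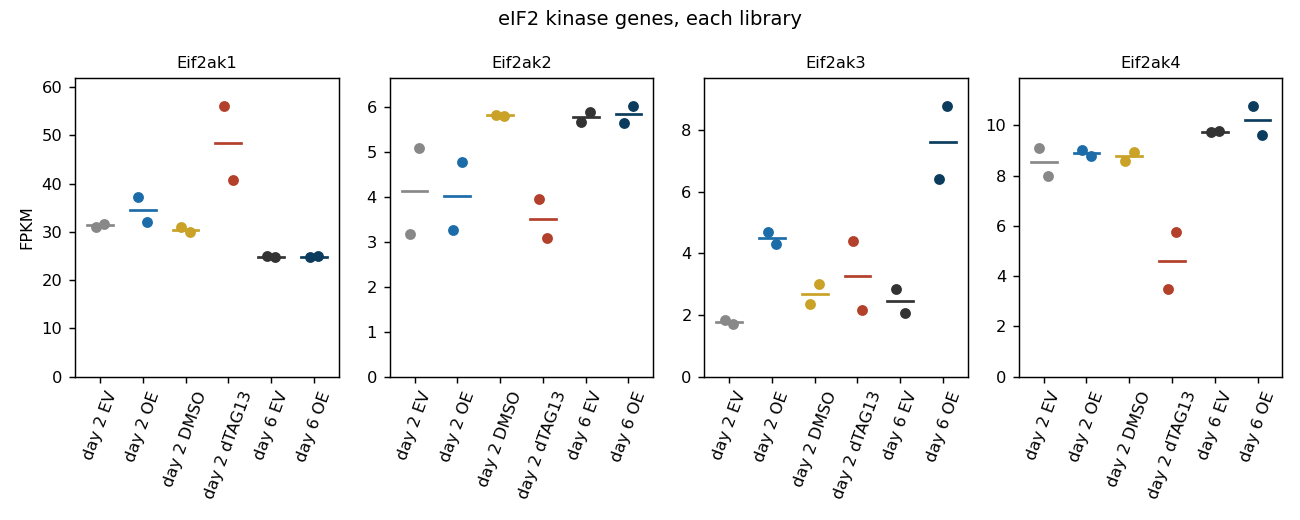
FPKM of the 4 eIF2 kinase genes (y axes start at 0), 2 points per group with their mean as a line. Eif2ak3 is highest in day 6 OE, at 6.40 and 8.79 FPKM, and both dTAG13 libraries lie highest for Eif2ak1 and lowest for Eif2ak4.

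Without D2_dTAG replicate 1, 14 of 60 factor genes passed at day 6, 11 higher and 3 lower, against 25.3% of all genes in that fit. Eif4a2 was among them, with 161 and 163 FPKM in EV and 289 and 268 in OE and a difference of 0.78 (adjusted p = 0.00094 without it, 0.156 with it). Eif4e stood at 0.67 (0.00111 without it, 0.151 with it) and Eif2s2 at 0.54 (0.00455 and 0.103, both adjusted p). The others were Eef1a1, Eef2k, Eif1b, Eif2s1, Eif3b, Eif3m and Eif4b, with Eif2ak3, on the higher side, and Eif4e2 and Eif4ebp1, with Eif3l, on the lower. That share of the factor genes lay below that of all genes. At day 6 43 of the 60 differences were positive, against 56% of all genes. Of the 40 other pathway genes, 2 rose in OE at day 6: Pdcd4 by 1.09 (SE 0.19, adjusted p = 0.0151) and Ppp1r15b, which helps to reverse eIF2 phosphorylation, by 0.99 (SE 0.16, adjusted p = 0.0115). Ppp1r15b read 13.2 and 13.9 FPKM in EV and 28.7 and 27.1 in OE.

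Whether the OE effect differed between the days was tested directly. In limma 0 of 60 factor genes passed, against 0.232% of all genes (0.0663% higher and 0.166% lower). At an unadjusted p under 0.05 there were 7, against 10.8% of all genes. With only the 4 groups compared 6 passed, against 9.72% of all genes. The largest difference was that of Eif4a2, 1.11 (SE 0.38, adjusted p = 0.3), and all 5 eIF2B genes were negative, with Eif2b4 at -0.70 (adjusted p = 0.165). Of the 60 factor genes 30 were negative, and Eif2b3 changed sign without D2_EV replicate 1. Eif6 stood at -0.64 (adjusted p = 0.1). Without D2_dTAG replicate 1, 7 passed, namely Eif4a2, Eif2s2 and Eif4e upward and Eif2b4, Eif3l, Eif4ebp1 and Eif6 downward, against 11.1% of all genes in that fit. These are differences of effects, not levels.

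**Figure D5:**
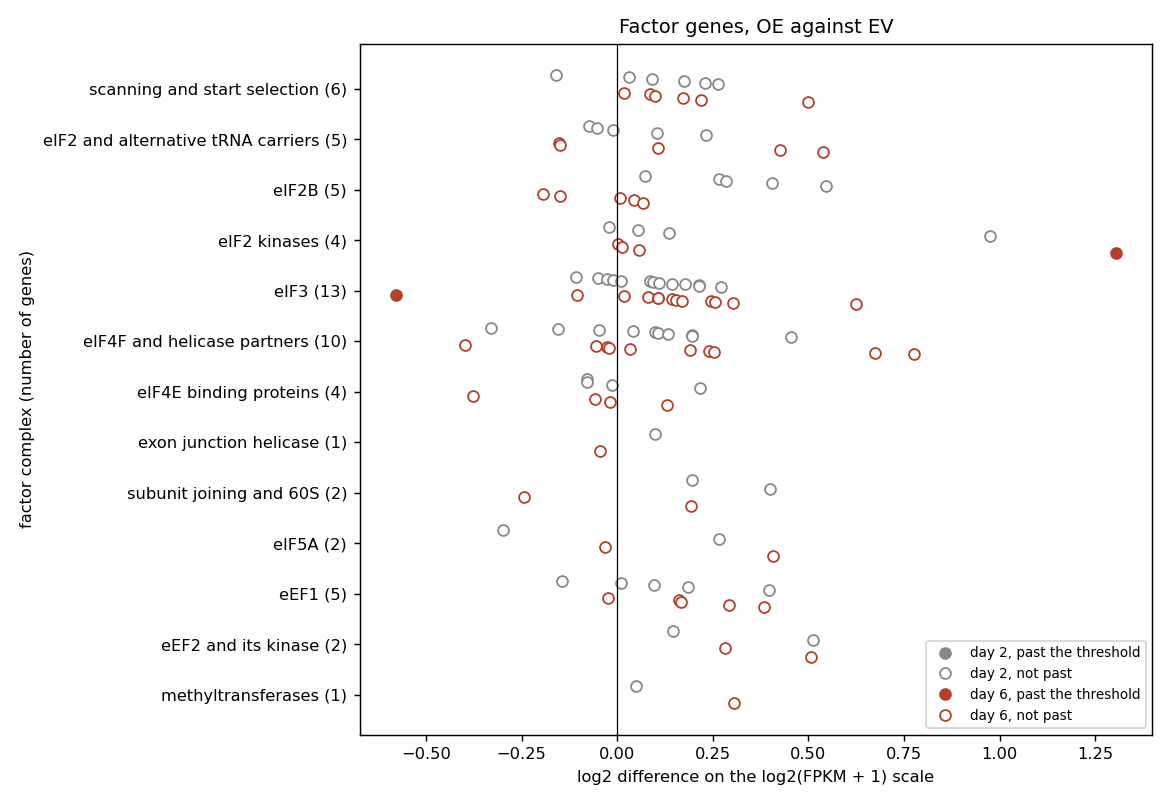
Log2 difference between OE and EV (x axis, log2(FPKM + 1) scale) of each factor gene, by complex (y axis), at day 2 (grey) and day 6 (red); filled points passed an adjusted p of 0.05 in limma. The 2 filled points are Eif2ak3 at 1.31 and Eif3l at -0.58, both at day 6.

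With dTAG13, 3 factor genes rose and 1 fell against DMSO, which is 6.67% of 60, while 12.2% of all genes passed (4.01% higher and 8.21% lower). The median factor gene stood at -0.02 and the median of all genes at -0.127, the latter at -0.0231 under quantile normalization. Of all genes past the threshold, 32.8% were higher, and 49.9% and 54.3% under quantile normalization and median-ratio scaling. Eif2ak1 read 30.9 and 29.98 FPKM with DMSO and 56.2 and 40.8 with dTAG13, and rose by 0.64 (SE 0.16, adjusted p = 0.0295). Eif2ak4 went from 8.60 and 8.93 to 3.47 and 5.76, and fell by 0.83 (SE 0.21, adjusted p = 0.0357). Eif2ak4 did not pass under quantile normalization (adjusted p = 0.0767) or median-ratio scaling (adjusted p = 0.0784). In the fit that left out D2_dTAG replicate 1, Eif2ak1 stood at 0.41 (adjusted p = 0.0352) and Eif2ak4 at -0.53 (adjusted p = 0.0253), and replicate 2 lay nearer to the DMSO libraries than replicate 1 for both genes.

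Both major elongation factors were higher with dTAG13. Eef1a1 (chromosome 9, 78478449 to 78489151) read 1738 and 1484 FPKM with DMSO and 2159.9 and 2119 with dTAG13, and rose by 0.41 (SE 0.11, adjusted p = 0.0407). Eef2 (chromosome 10, 81176631 to 81182498) went from 504 and 475 to 655 and 630.1, and rose by 0.39 (SE 0.11, adjusted p = 0.0453). In the fit that left out D2_dTAG replicate 1 they stood at 0.40 (adjusted p = 0.0522) and 0.36 (adjusted p = 0.0632) and did not pass. Neither passed with a pseudocount of 0.1 or without a trend; Eef1a1 also did not pass under quantile normalization, nor Eef2 under median-ratio scaling. The fit without D2_dTAG replicate 1 called 8 factor genes: Eif2ak1 and Eif4ebp1 higher, and Eif2ak4, Eif2ak2, Eif1ax, Eif4g2, Eif5b and Eif2s1 lower. In it 23.3% of all genes passed, 6.34% higher and 17.0% lower. Eif1ax, an X-linked start factor gene, read 207 and 201 with DMSO and 189 and 124 with dTAG13, and stood at -0.72 there and -0.41 with all libraries (adjusted p = 0.135). Eif4g2, a scaffold for initiation without the cap binder, went from 191 and 185 to 162 and 117, and stood at -0.68 there and -0.44 with all libraries (adjusted p = 0.123).

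The dTAG13 replicates disagreed for many factor genes. Eef2k read 5.18 and 0.822 FPKM in them, Eif4e3 4.66 and 0.420, Eif3j1 23.5 and 10.99, Eif4ebp2 0.340 and 2.93 and Eif4enif1 6.72 and 15.1, with replicate 1 named first. Eif5 read 263 and 137, and Eif2s2 409 and 292. When limma was given the DMSO and dTAG13 libraries alone, the number past the threshold was 0 of 12059 genes. Among markers of other cells, mesoderm genes (3 of 5 with a row) summed to 3.52 to 4.59 FPKM with DMSO and 7.94 to 10.9 with dTAG13, trophoblast genes (2 of 4) to 4.18 to 4.38 and 2.64 to 14.3, and the neural gene Pax6 (1 of 3) to 1.13 to 1.35 and 0 to 0.299. The mesoderm rise was that of Hand1 alone, from 4.16 and 2.88 to 7.94 and 10.7 FPKM. Kdr and Mixl1, both below 1 FPKM, were lower with dTAG13. The trophoblast gene Krt7 read 2.91 and 3.02 with DMSO and 0 and 12.6 with dTAG13. Germ cell markers went both ways. Dppa3 went from 42.4 and 31.6 FPKM with DMSO to 75.8 and 69.2 with dTAG13, and Tfap2c from 72.5 and 58.9 to 121 and 91.8. Dnd1 went from 11.8 and 12.6 to 7.03 and 7.78, and Prdm14 from 25.5 and 22.6 to 18.0 and 14.9. Prdm1 went from 7.19 and 6.42 to 3.37 and 4.09. The 2 groups overlapped for Nanos3, Pou5f1 and Itgb3. The part of these markers' cells in these results was not tested. Leaving out D2_dTAG replicate 2 raised the number past the threshold, and leaving out either DMSO library lowered it, among factor genes as among all genes. Of the 40 other pathway genes, Ddit3 rose with dTAG13 by 1.83 (SE 0.15, adjusted p = 0.000244), and Larp1, Pabpc1 and the ribosome-bound ATPase gene Abcf1 fell, with differences of -0.86, -0.43 and -0.50. Without D2_dTAG replicate 1, Ddit3 stood at 1.89, Larp1 at -0.76, Pabpc1 at -0.44 and Abcf1 at -0.27, the last with an adjusted p of 0.0993.

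Whether the EV and DMSO cells are of the same line is not stated, and the Y-linked genes Eif2s3y and Uty were listed at 0 in all DMSO and dTAG13 libraries and in no EV or OE library. A difference of line and an effect of DMSO cannot be told apart here. DMSO against EV at day 2 gave 0 of 60 past the threshold in limma, against 0.39% of all genes. At an unadjusted p under 0.05 there were 3, against 8.92% of all genes. With only the 2 groups compared 0 passed, against 1.63% of all genes. The differences ran from -0.32 for Eif3f to 0.50 for Eif4g3, with a median of -0.05. Eif3f read 109 and 104 FPKM in EV and 87.5 and 82.8 with DMSO, and Eif4g3 3.50 and 3.18 in EV and 5.69 and 4.65 with DMSO (adjusted p = 0.589).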

How the data were processed

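Per the labels' protocols, RNA was extracted with Trizol and poly(A)-enriched libraries were made. Per the submitters' processing notes, the tools were FastQC 0.10.1, cutadapt, Trim Galore 0.6.3, STAR 2.7.6a and Cufflinks 2.2.1, with the mm10 build; their settings are not given in the sources used here. The authors deposited FPKM values for 12955 genes in 12 libraries, each with 1 added: the smallest value of every column is 1, and 90.1% of values from 1.1 to 2 have 7 or more digits against 0% from 2 to 10. That 1 was subtracted. FPKM hold no depth, so the precision of low values is unknown.

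Groups followed the labels; dTAG13 libraries were placed by the treatment label, since the title of 1 has another spelling. The 12059 genes that reached 1 FPKM in 2 libraries entered limma 3.58.1 (R 4.3.3) on log2(FPKM + 1), pseudocount 1, with a trended prior variance and 1 model for all 6 groups (6 residual degrees of freedom, prior 3.86). Adjusted p (Benjamini-Hochberg over all genes tested) below 0.05 counted as past the threshold. The fit was tested on simulated data.

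Members and lists were chosen with earlier results of these data known. Genes named were those past the threshold in a comparison and, in each complex, the highest and the most changed; others were named after their values were seen. Positions came from GENCODE M21 (GRCm38, which is mm10) by symbol, promoters from RefSeq (GRCm38.p6). Neighbours are the 4 nearest tested genes on each side. Other software was matplotlib 3.10.9, scipy 1.17.1, numpy 2.4.6, pandas 2.3.3 and Python 3.11.15.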

Additional observations from a re-analysis of the deposited data

How the results depend on the processing

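With only the groups compared, the counts were 2 (OE at day 2), 14 (OE at day 6), 6 (difference of OE effects), 0 (dTAG13) and 38 (day 6 against day 2 in EV). Of all genes, 8.56%, 28.4%, 9.72%, 0% and 44.7% passed in the same fits, in that order. For OE at day 6 the count was 1 with a pseudocount of 0.1, 7 under quantile normalization, 4 under median-ratio scaling and 1 without a trend. The shares of all genes were 2.82%, 8.30%, 4.88% and 3.44%. For the difference of OE effects, quantile normalization gave 1, against 1.14% of all genes. For dTAG13 the count was 2 with a pseudocount of 0.1, 2 under median-ratio scaling and 2 without a trend, against 9.53%, 10.8% and 11.7% of all genes. Leaving out 1 library leaves a group with a lone library, assumed to vary like the other groups; this gave 0 to 7 for OE at day 2, 0 to 14 for OE at day 6, 0 to 7 for the difference, 0 to 25 for dTAG13, 8 to 40 for day 6 in EV, 16 to 43 for day 6 in OE and 0 to 1 for DMSO against EV. The upper ends came without D2_dTAG replicate 1, except for dTAG13, where it came without D2_dTAG replicate 2. The lower ends came without D6_EV replicate 1 for day 6 in EV and without D6_OE replicate 2 for day 6 in OE.

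Same-numbered libraries are not stated to be paired, and their deviations correlated from -0.135 to 0.252 over pairs of groups. With the replicate number as a block, OE at day 6 gave 1 factor gene in place of 2, day 6 in EV 22 in place of 23, day 6 in OE 33, dTAG13 4, and the others 0. For the named comparisons, 3.08%, 22.7%, 31.3% and 11.2% of all genes passed, in that order.

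Over all 60 factor genes and 7 comparisons, 257 of 5612 recalculated differences changed sign, none of them of a gene past the threshold. Many of the 5612 could not change. Other filters, the replicate block, no trend and only the groups compared leave each difference as it was. So does leaving out a library outside the comparison. The share of sign changes is therefore no measure of stability. For dTAG13, 17 changed sign without D2_dTAG replicate 1, among them Eef2k, Eif5 and Eif4a2, and 12 without D2_dTAG replicate 2; the median factor gene stood at -0.16 and 0.10. Of the uncalled differences printed above, Eif5a2 between the days in EV changed sign: it was -0.024 under quantile normalization, and -0.168 without D2_EV replicate 1 against 0.691 without D2_EV replicate 2. Over all alternatives, named gene differences past the threshold stayed past it 915 times and lost it 271 times. Depth is unknown, so the error of genes below a few FPKM, such as Eif4e3 and Eef2k, cannot be set apart from counting noise.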

Other observations

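Eif2s3y, the Y-linked copy of the eIF2 gamma subunit gene, was left out of the 60 and differed between groups. At day 2 it was 39.0 and 42.7 FPKM in EV and 26.9 and 30.7 in OE, at day 6 it was 35.7 and 42.4 in EV and 46.3 and 43.1 in OE, and was listed at 0 in both DMSO and both dTAG13 libraries. The Y-linked genes Ddx3y and Uty followed it: Ddx3y read 9.19 to 18.2 FPKM in the EV and OE libraries and at most 0.00992 in the other 4, where Uty was listed at 0. The X-linked Eif2s3x stood at 21.2 and 24.4 FPKM in the EV libraries of day 2 and 18.9 and 18.7 with DMSO, a difference of -0.26 (adjusted p = 0.833). The labels call all 12 libraries male.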
